A study of Mus musculus with 4 samples.

Results

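The genes described here encode members of 6 solute carrier families, most of them known as plasma membrane carriers: Slc2 (facilitated sugar transport), Slc5 (sodium-coupled transport of sugars, monocarboxylates and vitamins), Slc13 (sodium-coupled transport of dicarboxylates, citrate and sulfate), Slc16 (monocarboxylates and related acids), Slc22 (organic cations, anions and carnitine) and Slc47 (export of organic cations). Members were the protein-coding genes whose symbol is a family number followed by a and a number, with Slc16a1 left out. The deposited table held 49 of them among its 22422 genes, namely 11 of Slc2, 9 of Slc5, 5 of Slc13, 13 of Slc16, 10 of Slc22 and 1 of Slc47. Another 19 such genes of the annotation, 15 of them in Slc22, were not analysed here. The other 4 are Slc2a7, Slc5a2, Slc5a12 and Slc47a2.

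RNA of the distal colon was sequenced from female mice, 6 weeks old, that had received 2% dextran sulfate sodium (DSS), a polysaccharide that injures the colonic lining, for 5 days. The Elf4fl/fl-Villin-Cre group carried floxed Elf4 alleles and Cre recombinase driven by the villin promoter, which acts in intestinal epithelium, and its strain label reads C57BL/8 although the series design names C57BL/6. The wild type group was C57BL/6, with no further allele given. Each group had 2 libraries, named below by group and replicate number (wild type 2, for example), both groups received DSS, and colon without DSS was not analysed here. Whether the libraries came from separate animals is not stated, so p-values measure the spread between libraries, which may be technical.

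Carriers of these families set what the colonic epithelium takes up from the lumen and what inflamed tissue burns or releases. Sodium-coupled carriers such as Slc5a8 draw short-chain fatty acids and lactate into colonocytes against a gradient. Most Slc2 proteins and the lactate carriers of the Slc16 family instead let sugar or lactate pass down one. Glycolytic cells, activated leukocytes among them, are known for the glucose carriers Slc2a1 and Slc2a3 and the lactate exporter Slc16a3.

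The deposited values were normalised read counts, that is, whole reads divided by 1 factor per library. Elf4fl/fl-Villin-Cre colon gave 16023926 and 16425954 reads and wild-type colon 16134509 and 15885028. Elf4 itself stood at 897 and 758 normalised reads in Elf4fl/fl-Villin-Cre colon, against 1588 and 1938 in wild type (log2 fold change -1.09, limma adjusted p = 0.0139). All 11 epithelium markers fell, and their summed level was 99529 and 124727 in Elf4fl/fl-Villin-Cre colon against 302721 and 366003 in wild type. Of 8 colonocyte markers, 4 fell, with sums of 31662 and 52352 in Elf4fl/fl-Villin-Cre colon and 84006 and 103252 in wild type. Leaving out Saa1, the most abundant of them, gave 12744 and 19434 in Elf4fl/fl-Villin-Cre colon and 45283 and 58567 in wild type. Of 10 neutrophil markers, 9 rose, and Ly6g, the most abundant of them, was not called. Sums over all 10 were 16439 and 18485 in Elf4fl/fl-Villin-Cre colon and 13884 and 14198 in wild type. Without Ly6g they were 7334 and 7698 in Elf4fl/fl-Villin-Cre colon and 1220 and 678 in wild type. Of 8 macrophage markers, 7 rose (sums of 26747 and 16691 in Elf4fl/fl-Villin-Cre colon and 9210 and 7738 in wild type). Leaving out Lyz2, the most abundant of these, gave 8745 and 7273 in Elf4fl/fl-Villin-Cre colon and 4146 and 3645 in wild type. Fibroblast (2 of 7), endothelium (2 of 7) and erythroid (4 of 5) markers rose in part, and 1 of 7 smooth muscle markers fell. Of all genes tested, 15.5% were called. With library totals in place of the deposited scaling, 5 fibroblast, 5 endothelium and 5 erythroid markers rose and 0 smooth muscle markers fell. With median scaling 2, 0 and 3 rose and 3 smooth muscle markers fell, and 5 macrophage markers rose. Quantile scaling left 8 epithelium and 6 macrophage markers called. Each scaling called 9 neutrophil markers. Every marker listed was detected in both groups. In bulk tissue, fewer cells of a type and less RNA per cell cannot be told apart, and the part that shifts in cell makeup play in the results below was not tested.

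In Elf4fl/fl-Villin-Cre colon, 12 of the 48 carriers tested differed from wild type, 9 lower and 3 higher. Those that fell included the dicarboxylate carrier Slc13a2, the sodium-coupled carriers Slc5a9, Slc5a8, Slc5a1 and Slc5a6, the monocarboxylate family member Slc16a5, the organic cation family member Slc22a18, and the urate carrier Slc2a9. The 3 that rose were Slc13a3, Slc2a3 and Slc16a3. The test was limma on log2(value + 1), adjusted over all 22050 genes with a mean value of at least 1, at an adjusted p under 0.05. It left out only Slc2a2. Called genes made up 25% of the carriers tested and 15.5% of all genes tested (8.6% lower and 6.86% higher). The median log2 fold change, Elf4fl/fl-Villin-Cre over wild type, was -0.016 over the carriers and 0.11 over all genes tested. The 2 groups did not overlap for 30 of the 48 carriers (62.5%) and for 62.2% of all genes. EdgeR on the recovered reads tested 38 carriers and called 7 higher and 10 lower, all 12 above among them (9.88%, 13.5% and, in either direction, 23.4% of all genes it tested). The 5 carriers that edgeR called and limma did not, of which DESeq2 called Slc2a6, Slc16a6 and Slc22a5, each lost their edgeR call in at least 2 of the 4 fits that left out a library. With library totals in place of the deposited scaling, the median of all genes moved to 0.41, and 9 carriers were called higher and 8 lower (18.7% and 5.42% of all genes). With median scaling, 3 carriers were called higher and 11 lower (1116 and 2770 of all genes, where the deposited scaling gave 1512 and 1897).

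**Figure D1:**
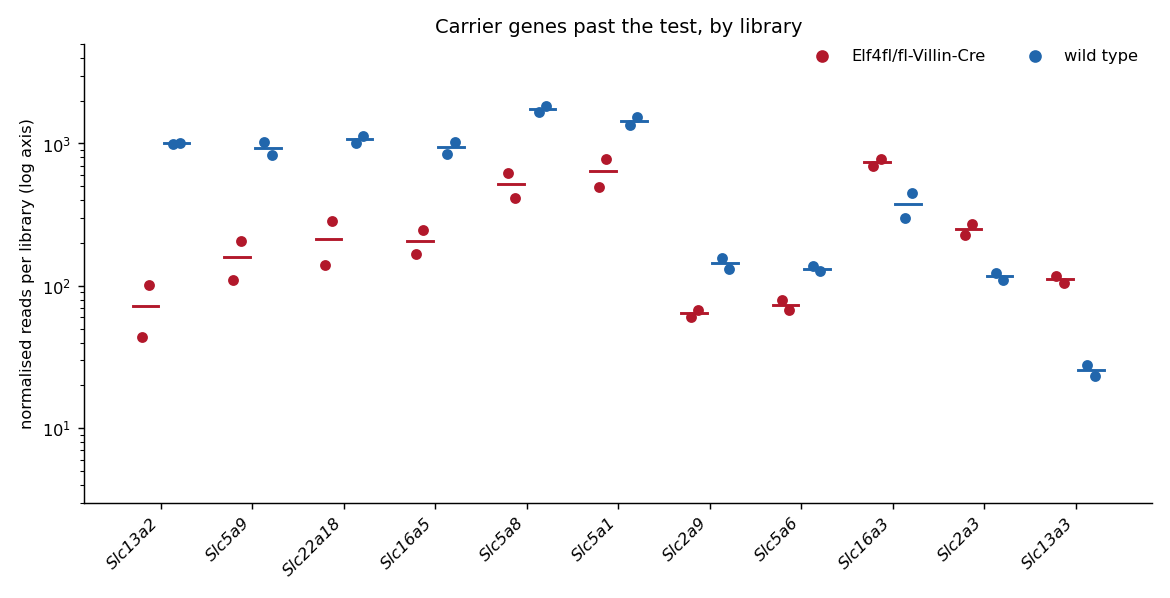
Normalised reads per library (log axis) of 11 carrier genes past the test, in order of log2 fold change; points are libraries and bars the mean of 2, with Elf4fl/fl-Villin-Cre left of wild type for each gene. The 11 were picked by the test, so their lack of overlap between groups is no added result (62.2% of all genes tested do not overlap). The widest gap is that of Slc13a2, with means of 72.6 in Elf4fl/fl-Villin-Cre and 1005 in wild type.

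The promoters of both called Slc13 genes, which moved in opposite directions, and of Slc5a8 and Slc5a1, apical carriers of butyrate and glucose that fell, are shown to set their motif content side by side. The sequences are from RefSeq (GRCm38.p6), 5′ to 3′ on the gene's strand, up to 250 bases before the gene start, without bases inside the annotated gene. Capitals mark matches, on either strand, to CCGGAA (the core bound by ETS factors, the family of Elf4), ACGTG (the core of the hypoxia response element) or CATAAA (a core bound by CDX factors).
Slc13a2 (chr11:78422235-78422484, minus strand): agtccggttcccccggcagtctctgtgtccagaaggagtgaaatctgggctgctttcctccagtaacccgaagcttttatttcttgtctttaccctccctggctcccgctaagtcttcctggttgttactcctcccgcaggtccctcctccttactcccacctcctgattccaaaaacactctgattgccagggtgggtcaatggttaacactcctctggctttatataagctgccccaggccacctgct
Slc13a3 (chr2:165473231-165473447, minus strand): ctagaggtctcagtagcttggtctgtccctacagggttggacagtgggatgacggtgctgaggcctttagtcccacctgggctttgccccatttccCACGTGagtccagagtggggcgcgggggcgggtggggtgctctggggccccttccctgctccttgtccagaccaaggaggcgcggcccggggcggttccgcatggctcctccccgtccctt
Slc5a8 (chr10:88885742-88885991, plus strand): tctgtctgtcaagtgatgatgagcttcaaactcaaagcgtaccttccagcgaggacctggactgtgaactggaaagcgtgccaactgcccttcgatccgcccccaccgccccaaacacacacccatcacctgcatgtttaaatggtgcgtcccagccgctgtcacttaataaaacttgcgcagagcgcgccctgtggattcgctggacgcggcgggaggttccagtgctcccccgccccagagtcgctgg
Slc5a1 (chr5:33103969-33104218, plus strand): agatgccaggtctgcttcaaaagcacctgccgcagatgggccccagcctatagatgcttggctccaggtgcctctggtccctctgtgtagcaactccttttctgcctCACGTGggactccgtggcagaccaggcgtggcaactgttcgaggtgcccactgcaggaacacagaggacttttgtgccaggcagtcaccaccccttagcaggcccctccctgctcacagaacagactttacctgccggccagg
The capitals in Slc13a3, which rose, and in Slc5a1, which fell, are the same palindrome, CACGTG, which holds ACGTG on both strands. Slc13a2 and Slc5a8 hold none of the 3 motifs searched for in these windows, which does not speak to the shorter GGAA. Over the 40 windows of 250 bases that the table lists for 37 of the carriers, CCGGAA occurred in 7.5%, ACGTG in 17.5% and CATAAA in 7.5%. The shares over all 32851 such windows were 12%, 16.6% and 10.8%. A match is a description of letters and not a binding site.

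The Slc13 family, which takes dicarboxylates, citrate and sulfate into cells with sodium, held the largest change in each direction among the called carriers. Slc13a2 encodes the sodium-coupled carrier of succinate, citrate and other dicarboxylates found on the apical side of intestinal and renal epithelium, and its gene (ENSMUSG00000001095.5) lies on the minus strand at chr11:78397087-78422217 in GRCm38 (mm10). It stood at 44.0 and 101 normalised reads in Elf4fl/fl-Villin-Cre colon, against 998 and 1012 in wild type. Its Elf4fl/fl-Villin-Cre mean was 7.22% of the wild-type mean, and the log2 fold change was -3.89 ± 0.37 (SE; limma adjusted p = 0.00799). Leaving out Elf4fl/fl-Villin-Cre 1 gave -3.30, and leaving out Elf4fl/fl-Villin-Cre 2 gave -4.48. Slc13a2os, an antisense RNA that overlaps the gene, had 4.07 and 5.85 normalised reads in Elf4fl/fl-Villin-Cre colon and 72.0 and 61.1 in wild type (limma adjusted p = 0.00942). Whether the counting used strand is not given in the sources used here, so reads of the pair may have been shared or dropped. Slc13a3 encodes the high-affinity dicarboxylate carrier, which in kidney lies on the basolateral side, and its gene (ENSMUSG00000018459.15) lies on the minus strand at chr2:165405028-165473230. It had 116 and 105 normalised reads in Elf4fl/fl-Villin-Cre colon and 27.8 and 23.2 in wild type, 4.35 times the wild-type mean (log2 fold change 2.08 ± 0.27, limma adjusted p = 0.011). Per kilobase of exon, the level of Slc13a2 was 30.1 and that of Slc13a3 21.3 in Elf4fl/fl-Villin-Cre colon, against 417 and 4.89 in wild type. The sulfate carriers Slc13a1 and Slc13a4 and the citrate carrier Slc13a5 had 0 to 10.9 normalised reads in every library and were not called, too few to measure a moderate difference.

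Slc5 was the family with the most carriers called lower, 4 of 9, and with 0 called higher (0 at an unadjusted p under 0.05 in limma, and 0 by edgeR). Over all genes tested, limma called 8.6% lower and 6.86% higher. Slc5a8 encodes the sodium-coupled carrier of butyrate, lactate and other monocarboxylates of colonic epithelium. It stood at 623 and 417 normalised reads in Elf4fl/fl-Villin-Cre colon, against 1672 and 1820 in wild type (log2 fold change -1.77 ± 0.21, limma adjusted p = 0.0097). Slc5a9, a sodium-coupled carrier of mannose and other sugars, had 110 and 207 in Elf4fl/fl-Villin-Cre colon and 1028 and 837 in wild type (log2 fold change -2.61 ± 0.31, limma adjusted p = 0.0097). In both genes each wild-type library lay above both Elf4fl/fl-Villin-Cre libraries by more than the spread within either group. Both were picked by the test, so this gap is no added result (62.2% of all genes tested do not overlap between groups). Slc5a1, the sodium-glucose cotransporter of the intestine, had 498 and 783 in Elf4fl/fl-Villin-Cre colon and 1348 and 1545 in wild type. It fell by 1.21 ± 0.23 on the log2 scale (limma adjusted p = 0.023), a call that edgeR lost when wild type 2 was left out (adjusted p = 0.0718). Slc5a6, which carries biotin and pantothenate, had 79.0 and 67.7 in Elf4fl/fl-Villin-Cre colon and 137 and 127 in wild type. Its log2 fold change was -0.84 ± 0.22 at the edge of the threshold (limma adjusted p = 0.0499), and the gene overlaps Atraid on the opposite strand. EdgeR called Slc5a6 with all libraries (adjusted p = 0.041) but lost that call whichever library was left out (adjusted p up to 0.123), and it was not called under library totals (limma adjusted p = 0.134).

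The other Slc5 genes did not pass. Slc5a3, the myo-inositol carrier that cells raise under osmotic stress, had the second highest mean of the family in normalised reads, with 550 and 681 in Elf4fl/fl-Villin-Cre colon and 696 and 2566 in wild type. Wild type 2 stood apart from the other 3 libraries, which lay between 550 and 696 (log2 fold change -1.13 ± 0.56, limma adjusted p = 0.227). Leaving it out gave -0.18 in limma, and leaving out wild type 1 gave -2.07, with a call in edgeR (adjusted p = 0.0153). Slc5a3 lies within Mrps6 on the same strand, so reads may be split between them, and Mrps6 had 540 and 582 in Elf4fl/fl-Villin-Cre colon and 1016 and 1329 in wild type. Slc5a7, the choline carrier of cholinergic neurons, had 79.8 and 98.7 in Elf4fl/fl-Villin-Cre colon and 61.7 and 71.7 in wild type (log2 fold change 0.41, limma adjusted p = 0.307). Summed over the family per kilobase of exon, Slc5 stood at 348 and 413 in Elf4fl/fl-Villin-Cre colon, against 955 and 1166 in wild type. The thyroid-type iodide carrier Slc5a5 had 8.96 to 16.9 normalised reads, and Slc5a10 and Slc5a11 had 0 to 4.12.

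**Figure D2:**
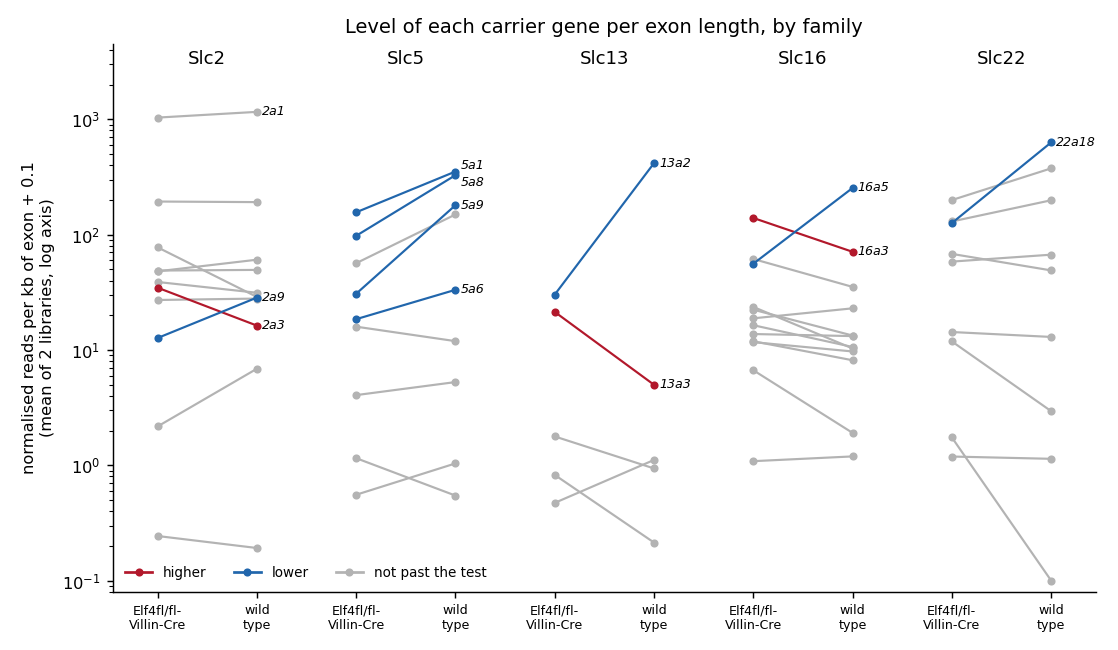
Mean level of 46 carriers in normalised reads per kilobase of exon, plus 0.1 (log axis), in Elf4fl/fl-Villin-Cre and wild type colon, with a line for each gene and a pair of positions for each family; Slc47 is not drawn. Slc2a1 has the highest level in both groups, at 1035 in Elf4fl/fl-Villin-Cre and 1160 in wild type, and the called Slc13 genes run in opposite directions.

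In the Slc16 family, 1 of 13 genes fell and 1 rose, where library totals gave 4 higher and quantile and median scaling 0 higher. The share called was 15.4%, near the 15.5% of all genes tested. Slc16a5, for which transport of drugs such as bumetanide is known from the human protein, had 167 and 246 normalised reads in Elf4fl/fl-Villin-Cre colon, against 846 and 1032 in wild type. It fell by 2.20 ± 0.22 on the log2 scale (limma adjusted p = 0.0089). Gm11695, an antisense RNA that overlaps it, also fell (26.1 and 43.5 normalised reads in Elf4fl/fl-Villin-Cre colon, 107 and 130 in wild type, limma adjusted p = 0.0213). Slc16a3, the carrier through which glycolytic cells release lactate, had 698 and 784 in Elf4fl/fl-Villin-Cre colon and 301 and 452 in wild type. It rose to 1.97 times the wild-type mean (log2 fold change 1.0 ± 0.22, limma adjusted p = 0.0316). Its edgeR call was lost when wild type 1 was left out (adjusted p = 0.0552), and its limma call with quantile or median scaling (adjusted p = 0.0521 and 0.0602). The level per kilobase of Slc16a3 was 139 in Elf4fl/fl-Villin-Cre colon and 70.8 in wild type, and that of Slc16a5 was 55.8 in Elf4fl/fl-Villin-Cre colon and 254 in wild type, so that the order of the 2 genes differed between the groups.

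Most other Slc16 values lay on the higher side without passing. Of the 13, 9 had a log2 fold change above 0 and the family median was 0.69, where all genes had 0.11. Over all 22050 genes tested, 12383 lay above 0. The 11 that were not called ran from -0.28 to 2.21, the highest being Slc16a8, at 7.33 and 22.6 normalised reads in Elf4fl/fl-Villin-Cre colon and 8.23 and 0 in wild type. EdgeR also called Slc16a6 and Slc16a9 higher. Slc16a6, known as an exporter of ketone bodies from zebrafish, had 287 and 312 in Elf4fl/fl-Villin-Cre colon and 202 and 141 in wild type (edgeR adjusted p = 0.0456, limma adjusted p = 0.0539). Slc16a9 had 77.4 and 105 in Elf4fl/fl-Villin-Cre colon and 48.4 and 30.6 in wild type (edgeR adjusted p = 0.048, limma adjusted p = 0.0607). Slc16a7, a high-affinity pyruvate and lactate carrier, had 129 and 145 in Elf4fl/fl-Villin-Cre colon and 99.8 and 127 in wild type (limma adjusted p = 0.432). Slc16a1, the main monocarboxylate carrier of colon, lies outside the set and had 1505 and 1727 in Elf4fl/fl-Villin-Cre colon and 2359 and 3474 in wild type. It fell by 0.83 (limma adjusted p = 0.0482), a call that edgeR lost when Elf4fl/fl-Villin-Cre 1 or wild type 2 was left out (highest adjusted p = 0.0925) and that limma lost under library totals (-0.51, adjusted p = 0.108).

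In the Slc2 family, 1 gene rose, 1 fell and 8 were not called. The share called was 20%, where all genes tested gave 15.5%. Slc2a1, the widespread basal glucose carrier, was the most abundant carrier of all. It had 3717 and 3538 normalised reads in Elf4fl/fl-Villin-Cre colon, against 3616 and 4518 in wild type, so the groups overlapped (log2 fold change -0.16 ± 0.16, limma adjusted p = 0.542). Its sign turned under library totals (0.16) and quantile scaling (0.20). It made up 68.2% of the family's level per kilobase in Elf4fl/fl-Villin-Cre colon and 72.5% in wild type. Slc2a3, the high-affinity glucose carrier of neurons and leukocytes, had 229 and 272 in Elf4fl/fl-Villin-Cre colon and 123 and 111 in wild type. It rose by 1.09 ± 0.19 on the log2 scale (limma adjusted p = 0.0187). Leaving out wild type 2 ended its edgeR call (adjusted p = 0.0704). Among the cell markers given above, 9 of 10 for neutrophils and 7 of 8 for macrophages also rose. So did 2 of 7 for fibroblasts, 2 of 7 for endothelium and 4 of 5 erythroid markers. Whether any of these cell types bears on the change in Slc2a3 was not tested. Slc2a9, a urate carrier, had 60.3 and 67.7 in Elf4fl/fl-Villin-Cre colon and 157 and 131 in wild type (log2 fold change -1.15 ± 0.23, limma adjusted p = 0.0244). EdgeR called it in 1 of the 4 fits that each left out 1 library, the one lacking Elf4fl/fl-Villin-Cre 2 (highest adjusted p = 0.0702).

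Slc2a4, the insulin-responsive glucose carrier of muscle and fat, was the second most abundant Slc2 gene and had 505 and 841 normalised reads in Elf4fl/fl-Villin-Cre colon, against 763 and 567 in wild type (log2 fold change -0.01 ± 0.27, limma adjusted p = 0.979). Its sign turned under library totals (0.30) and quantile scaling (0.013). Slc2a6, a glucose carrier family member of lysosomes, had 287 and 211 in Elf4fl/fl-Villin-Cre colon and 128 and 56.9 in wild type. It passed edgeR (adjusted p = 0.0456) and not limma (log2 fold change 1.52 ± 0.40, adjusted p = 0.0531). The fructose carrier Slc2a5 had 4.89 and 9.20 in Elf4fl/fl-Villin-Cre colon and 12.3 and 33.7 in wild type (limma adjusted p = 0.167), and Slc2a2, the low-affinity glucose carrier, had 0 to 1.05 normalised reads. Slc2a8, Slc2a10, Slc2a12 and the myo-inositol carrier Slc2a13 lay between 126 and 300.3 in every library, with log2 fold changes of -0.31 to 0.29.

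**Figure D3:**
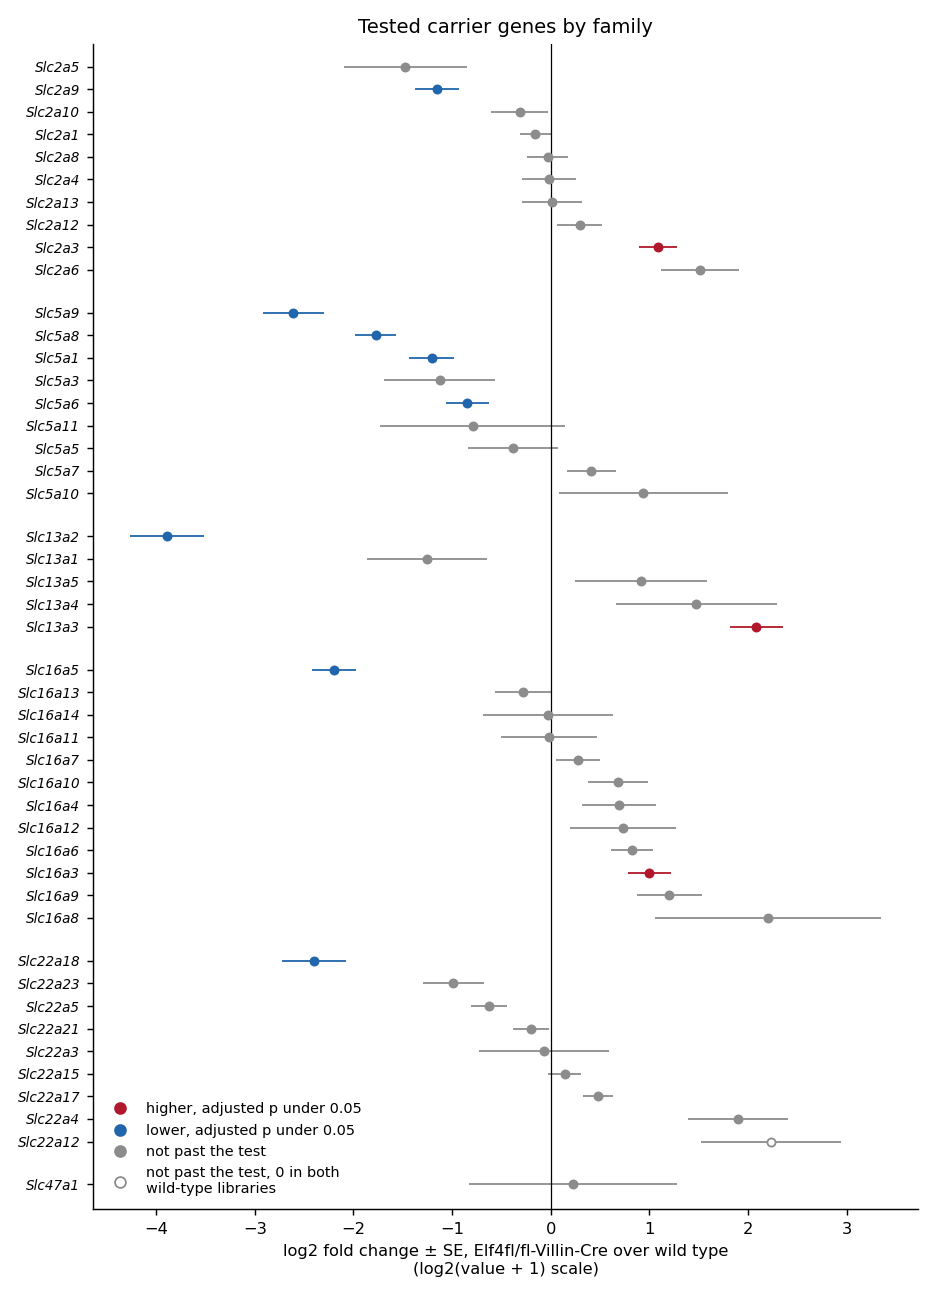
Log2 fold change of 46 of the 48 carriers tested, Elf4fl/fl-Villin-Cre over wild type (log2(value + 1) scale), by family; points are limma estimates and bars 1 SE. Red genes rose, blue genes fell and grey genes did not pass. Slc13a2 at -3.89 is the lowest and Slc13a3 at 2.08 the highest called of those drawn. Most Slc16 genes lie above 0, as do 12383 of all 22050 genes tested.

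In the Slc22 family, 2 of 10 genes fell and 0 rose (3 higher at an unadjusted p under 0.05 in limma, and 1 by edgeR). The share called was 20%, where all genes tested gave 15.5%. Library totals gave 2 higher and 2 lower, quantile scaling 0 and 1, and median scaling 0 and 4. Slc22a18, an imprinted gene whose protein resembles the organic cation carriers, had 141 and 287 normalised reads in Elf4fl/fl-Villin-Cre colon, against 1012 and 1129 in wild type. Its log2 fold change was -2.40 ± 0.32 (limma adjusted p = 0.0118), and per kilobase its level was 126 in Elf4fl/fl-Villin-Cre colon and 630 in wild type, the highest of the family there. Slc22a23, whose substrate is not established, had 861 and 1684 in Elf4fl/fl-Villin-Cre colon and 2194 and 2600 in wild type (log2 fold change -0.99 ± 0.31, limma adjusted p = 0.0852). Slc22a23 was called lower by DESeq2 (adjusted p = 0.0112) and by limma with median scaling (adjusted p = 0.0474), and not by edgeR (adjusted p = 0.067) or under library totals (limma adjusted p = 0.135). Leaving out Elf4fl/fl-Villin-Cre 1 gave -0.50 in limma, and edgeR called it when Elf4fl/fl-Villin-Cre 2 was left out (adjusted p = 0.00157).

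The carnitine and ergothioneine carriers Slc22a5, Slc22a21 and Slc22a4 neighbour each other on chromosome 11 and did not pass limma. Slc22a5, the main carnitine carrier, had 341 and 457 normalised reads in Elf4fl/fl-Villin-Cre colon, against 578 and 641 in wild type (log2 fold change -0.62 ± 0.18, limma adjusted p = 0.0709, edgeR adjusted p = 0.0459). Slc22a4, the ergothioneine carrier, went the other way, with 38.3 and 21.7 in Elf4fl/fl-Villin-Cre colon and 9.26 and 5.27 in wild type (log2 fold change 1.90 ± 0.50, limma adjusted p = 0.0551, edgeR adjusted p = 0.0388). Slc22a21 had 195 and 230 in Elf4fl/fl-Villin-Cre colon and 227 and 260 in wild type (limma adjusted p = 0.485). These 3 genes are close paralogs, so the counting may have split reads between them. Slc22a17, a receptor for lipocalin 2, had 305 and 309 in Elf4fl/fl-Villin-Cre colon and 227 and 214 in wild type (log2 fold change 0.48, limma adjusted p = 0.0885). The urate carrier Slc22a12 had 3.26 and 4.18 in Elf4fl/fl-Villin-Cre colon and 0 in both wild-type libraries. Against a floor of 3 reads over the wild-type group, the Elf4fl/fl-Villin-Cre mean was 2.38-fold higher. The floor covers counting error in wild type only, and the Elf4fl/fl-Villin-Cre mean, from 4 and 5 reads, was taken as exact. Slc22a12 passed the filter on means through the Elf4fl/fl-Villin-Cre libraries alone and was not called (limma adjusted p = 0.0871). The gene overlaps Nrxn2 on the opposite strand, which itself rose (limma adjusted p = 0.0236). Slc22a3 and the exporter Slc47a1 of the Slc47 family had 0 to 7.33 normalised reads in every library, and Slc47a1 was not called (limma adjusted p = 0.906).

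Genes that act with the carriers moved both ways. Of 5 chaperones and scaffolds, 1 rose and 2 fell. That is 60% called, the share among the 5 regulators below too, where all genes tested gave 15.5%. Shares of this and the later lists are descriptions only, since the lists were chosen with earlier results of these data known. Bsg, the chaperone that brings Slc16a1 and Slc16a3 to the membrane, had 4829 and 5982 normalised reads in Elf4fl/fl-Villin-Cre colon, against 9427 and 9724 in wild type (log2 fold change -0.83, limma adjusted p = 0.0257). Emb, the chaperone of Slc16a7, had 799 and 630 in Elf4fl/fl-Villin-Cre colon and 324 and 194 in wild type (log2 fold change 1.50, limma adjusted p = 0.0202). Slc9a3r1, an apical scaffold protein, fell by 1.05 (limma adjusted p = 0.0162). Under library totals the change of Bsg was -0.52 and its call was lost (limma adjusted p = 0.052). EdgeR kept the call of Bsg in 1 of 4 fits that left out a library (highest adjusted p = 0.0949), and that of Emb was lost when wild type 2 was left out (adjusted p = 0.051). Of 5 regulators, Sgk3, a kinase that raises carrier activity, and Nedd4l, a ubiquitin ligase, rose by 1.04 and 0.80, and the arrestin Arrdc4 fell by 0.56 (limma adjusted p = 0.0185, 0.0311 and 0.0401). In edgeR, Sgk3 lost its call when wild type 1 was left out (adjusted p = 0.0549), Nedd4l when Elf4fl/fl-Villin-Cre 1 or wild type 2 was (highest adjusted p = 0.101), and Arrdc4 when any 1 library was (highest adjusted p = 0.128). Under library totals the change of Arrdc4 was -0.24 and its call was lost (limma adjusted p = 0.217), and quantile scaling also left 0 regulators lower.

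Sugar-handling enzymes were called lower in 3 of 12 cases and higher in 0 (limma, 2 higher at an unadjusted p under 0.05, and edgeR 1). By limma 25% of them were called, as of the 4 carboxylate receptors below, where all genes tested gave 15.5%. Hk1, the hexokinase that traps glucose, had 1441 and 1704 normalised reads in Elf4fl/fl-Villin-Cre colon and 3192 and 3815 in wild type (limma adjusted p = 0.012). Slc37a4, the glucose-6-phosphate carrier, fell by 0.91 (limma adjusted p = 0.0276), and its edgeR call was lost when Elf4fl/fl-Villin-Cre 1 or wild type 2 was left out (highest adjusted p = 0.0819). Under library totals Slc37a4 was at -0.60 and its call was lost (limma adjusted p = 0.055), and 1 enzyme of the list was then called higher. Of 4 receptors for carboxylates, Hcar2, which binds niacin and butyrate and is made by colonocytes and by neutrophils and macrophages, rose. It had 194 and 149 in Elf4fl/fl-Villin-Cre colon, against 44.2 and 34.8 in wild type (log2 fold change 2.09, limma adjusted p = 0.0106).

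Of 16 other organic anion and drug carriers, 4 rose (7 under library totals) and 1 fell. The share called was 31.25%, where all genes tested gave 15.5%. Abcc3, a basolateral exporter of bile salt and glucuronide conjugates, had 435 and 533 normalised reads in Elf4fl/fl-Villin-Cre colon, against 1578 and 1558 in wild type (log2 fold change -1.70, limma adjusted p = 0.00742). Abcb1b, a drug efflux pump, had 274 and 320 in Elf4fl/fl-Villin-Cre colon and 84.4 and 84.3 in wild type (log2 fold change 1.80, limma adjusted p = 0.00926), while its close paralog Abcb1a, with which reads may be shared, had 1257 and 3575 in Elf4fl/fl-Villin-Cre colon and 4872 and 6447 in wild type (limma adjusted p = 0.0963). Abcc1 and Slco3a1 rose by 0.82 and 0.93 (limma adjusted p = 0.0217 and 0.0259). With wild type 2 left out edgeR lost Slco3a1 (adjusted p = 0.0702), and it kept Abcc1 in 1 of 4 fits that left out a library (highest adjusted p = 0.0758). Water-soluble vitamin carriers were called lower in 3 of 9 cases and higher in 0 (limma, 1 higher at an unadjusted p under 0.05, and edgeR 0). Their share called was 33.3%, where all genes tested gave 15.5%. Library totals gave 2 higher and 3 lower, and quantile scaling 1 higher and 2 lower. The riboflavin carrier Slc52a3 fell by 1.98, the thiamine pyrophosphate carrier Slc44a4 by 1.44 and the folate carrier Slc46a1 by 1.53 (limma adjusted p = 0.0135, 0.0139 and 0.04). Slc46a1 lost its edgeR call when wild type 2 was left out (adjusted p = 0.127).

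**Figure D4:**
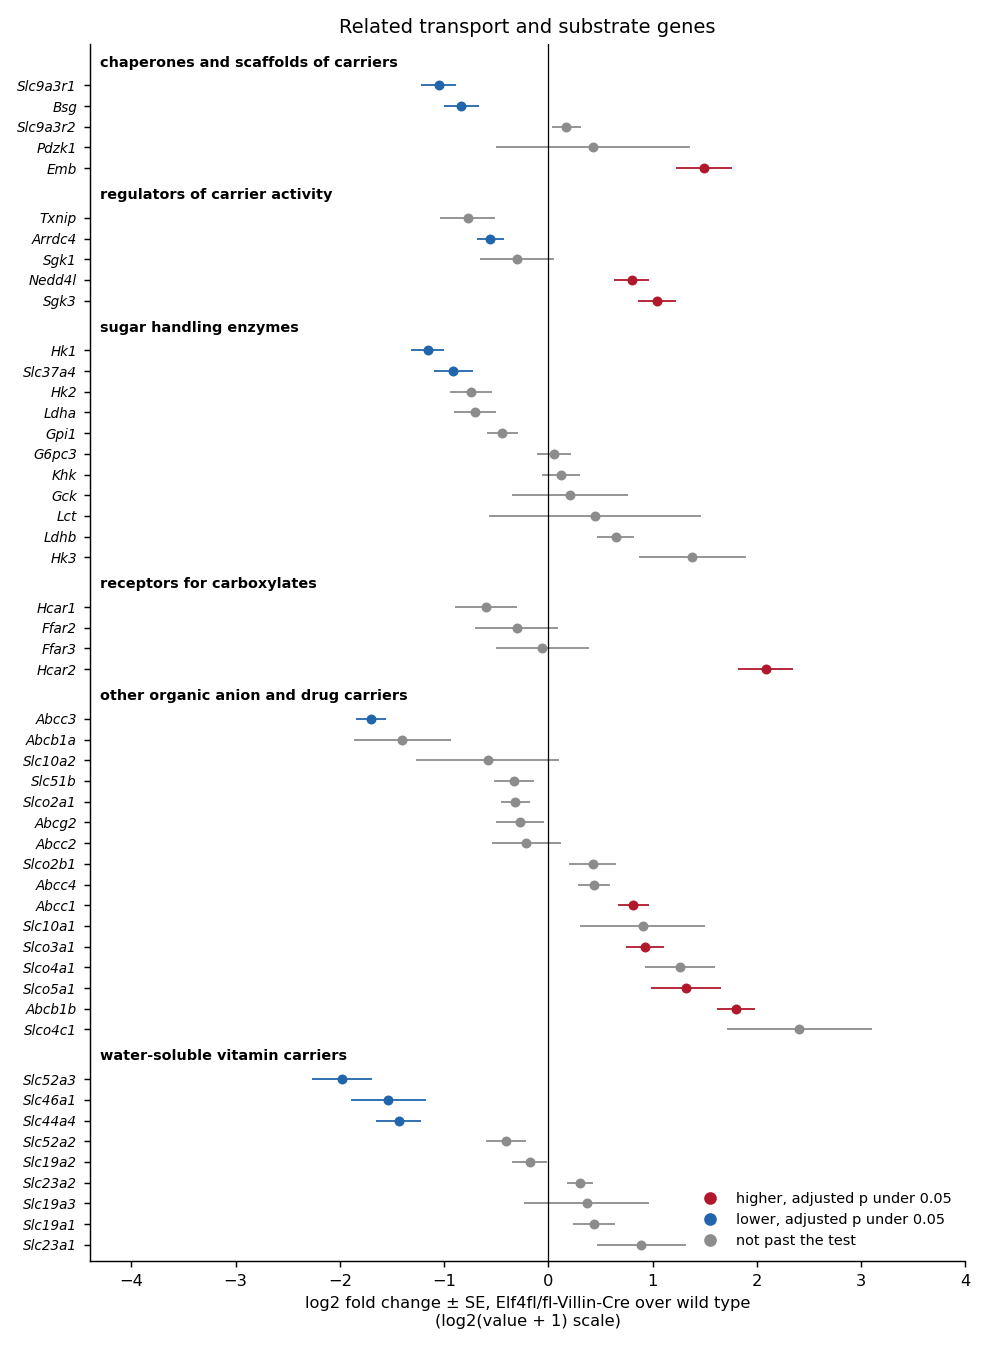
Log2 fold change of related transport and substrate genes, Elf4fl/fl-Villin-Cre over wild type (log2(value + 1) scale), in 6 lists; points are limma estimates and bars 1 SE, with red for genes that rose, blue for those that fell and grey for those that did not pass. Of the genes drawn, Hcar2 at 2.09 is the highest called and Slc52a3 at -1.98 the lowest.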

How the data were processed

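The submitters' processing notes name the genome build mm10. Not given in the sources used here were the aligner, counter, annotation release, strandedness and scaling tool. Per the deposited values, the authors' normalised signal is a count per gene divided by 1 factor per library: 100% of the values came out as whole reads, within 0.01, once divided by the lowest nonzero value of their library. Symbols came from GENCODE mouse release 21, which matched 22376 of 22422 identifiers with version numbers ignored.

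The main test was limma (3.58.1, R 4.3.3) with a variance trend on log2(value + 1), genes with a mean under 1 left out, genotype as the only term and Benjamini-Hochberg adjustment over 22050 genes. It had 2 residual and 4.06 prior degrees of freedom. edgeR (4.0.16, quasi-likelihood, TMM, filterByExpr) tested 17337 genes on the recovered reads and called 4054. DESeq2 (1.42.0) was an alternative. The main limma test and the edgeR test were tried on simulated data. DESeq2, the other scalings, the replicate block and the fits that left out a library were not. Levels per kilobase used the union of annotated exons.

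Every called carrier and the 2 most abundant carriers of each family were named by rule, and related genes by their list's smallest p. Other carriers were named after their values were seen. The carriers and lists were chosen with earlier results of these data known. The SE values come from the limma fit and measure the spread between libraries, while the floor for Slc22a12 covers counting error only. A few genes enter the fits and counts but are not reported here by name or drawn.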

Additional observations from a re-analysis of the deposited data

How the results depend on the processing

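Carriers called were 3 higher and 9 lower as reported. Called higher were 5 with a pseudocount of 5, 8 without genes of mean under 10, 9 under library totals, 7 by edgeR, 6 by DESeq2, 7 with the replicate block in limma and 8 with it in edgeR. Carriers called lower stayed within 1.5 times of 9 under each of these. Over all genes, 1512 were higher and 1897 lower, 4114 and 1194 under library totals, 1116 and 2770 with median scaling, and 2456 and 2977 with the replicate block in edgeR. The carriers' median of -0.016 became 0.30 under library totals and -0.19 with median scaling. Library totals moved the median of all genes in the same direction, to 0.41. For the other reversals the cause was not tested. Slc5a6 and Slc16a3 lost their limma call without a filter on low values.

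Without 1 library, with the lone library of a group assumed to vary like the others, limma called 0 genes (3778 to 6271 at an unadjusted p under 0.05), having 1 residual degree of freedom fewer. Over the limma and edgeR fits of this kind, 0 to 1563 genes were higher and 0 to 2191 lower, with 844 higher without Elf4fl/fl-Villin-Cre 1 and 476 higher and 809 lower without wild type 2 in edgeR. Carriers were 0 to 6 higher and 0 to 10 lower. Their median ran from -0.24 to 0.19 and turned sign without Elf4fl/fl-Villin-Cre 1 (0.15 in limma, 0.11 in edgeR) and without wild type 2 (0.19 and 0.033). edgeR called Slc13a2, Slc13a3, Slc5a8, Slc5a9, Slc16a5 and Slc22a18 in each of its 4 such fits. Replicate numbers are shared by label only. Deviations of same-numbered libraries correlated at 0.104 over genes, too few pairs to show pairing, and with the replicate block limma called 18 carriers, including all 12. The block also brought Slc22a23 past the threshold (adjusted p = 0.0132 in limma, 0.00233 in edgeR), and Slc5a3 in edgeR (adjusted p = 0.0208; limma adjusted p = 0.0598). With 2 libraries a group, carriers under about 10 normalised reads (11 of 49) can show only large differences.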
